A study of Mus musculus with 28 samples.

Results

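The hippocampus of aged fosB d/d mice was compared with that of aged wild type mice, which took in 5 of the 28 arrays of the series. Arrays entered by their labelled genotype and age: 2 from fosB d/d mice of 70 and 64.7 weeks and 3 from wild type mice of 68.7 to 70.3 weeks, by the age labels, whereas the protocol text gives 14 months. In the d/d genotype the Fosb gene no longer gives the FosB protein. The 5 animals shared the strain C57BL/6J, a female sex label and the absence of epilepsy, no treatment label was given for them, and the replicates were labelled biological. RNA came from hippocampi taken after saline perfusion under anaesthesia. The series also has aged fosB-null mice with epilepsy (3 arrays) and without (2 arrays, 71 weeks), and mice of 10 weeks of all 3 genotypes given saline or kainate (KA), a drug that sets off seizures. Of these, the fosB-null mice without epilepsy and the young fosB d/d and wild type mice given saline (3 arrays each) were set beside the aged comparison.

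FosB belongs to the Fos family of transcription factors, which pair with Jun proteins to form AP-1 and bind DNA at AP-1 sites. The Fosb transcript is induced by neuronal activity and is spliced into forms for full-length FosB and for the shorter, long-lived delta-FosB. As the d/d allele removes the first of these forms and keeps the second, and the null allele removes both, the comparison asks what the lack of full-length FosB does to hippocampal transcripts late in life.

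Gene levels are the deposited log2 signals of Affymetrix Mouse Gene 1.0 ST arrays, so that a difference of 1 is a doubling, and levels of different genes, which come from different probes, can be compared only roughly. The 19938 genes tested are those with a probe set that names exactly 1 symbol, each read from its brightest probe set. Of 18 dentate granule cell markers 17 lay above the median gene, as did 12 of 13 CA1 pyramidal cell markers, 12 of 15 neocortex markers, 9 of 12 striatum markers and 10 of 17 thalamus and habenula markers, so these ranks do not set the hippocampus apart from neighbouring regions. The fosB d/d arrays correlated at 0.9948 with each other, and the wild type arrays at 0.9915 to 0.9967. Array medians were 8.39 and 8.40 in fosB d/d, 8.48 to 8.58 in wild type, 8.41 to 8.42 in the fosB-null mice without epilepsy and 8.52 to 8.60 in those with epilepsy. The median gene was thus 0.13 lower in fosB d/d than in wild type, and every difference below is fosB d/d minus wild type after this shift of the median gene is taken off. The standard error (SE) and adjusted p beside it are those of the deposited difference, from limma over the 10 aged arrays with Benjamini-Hochberg adjustment over all genes, and a gene is called at an adjusted p under 0.05. Aged arrays of all genotypes had Xist at 12.08 to 12.97 and the Y-linked Eif2s3y at 3.96 to 4.55. The young arrays, labelled female as well, had Eif2s3y at 9.69 to 10.50 and Xist at 5.81 to 9.55. In the young saline mice Xist was at 9.55, 6.27 and 6.52 in wild type and 6.39, 6.67 and 7.58 in fosB d/d. The wild type array at 9.55 had Eif2s3y at 9.82, and its part in the young differences was not tested.

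Fosb itself, the targeted gene, was read from 1 probe set. Its level was 9.36, 9.85 and 9.77 in the aged wild type arrays and 9.80 and 9.81 in the fosB d/d arrays. The deposited values overlapped, although both fosB d/d arrays lay above wild type once array medians were removed, and the difference of 0.28 (SE 0.33) was not called (adjusted p = 0.81). The fosB-null arrays without epilepsy lay lower, at 8.54 and 8.76. A single value for the gene does not separate the spliced forms, so it does not check the loss of the FosB form in the d/d animals.

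Between aged fosB d/d and aged wild type, 11 genes were called, which is 0.0552% of those tested, with 1 higher (0.00502%) and 10 lower (0.0502%). At an unadjusted p under 0.05 there were 362 higher (1.82%) and 4078 lower genes (20.5%). Of the 11, 7 lay under the 30th percentile of level (7.41), 3 were receptor genes of smell or the vomeronasal organ, and 1 was a predicted locus, which leaves 7 genes to name. None of the 11 was called when any 1 of the 5 arrays was left out, the smallest adjusted p then being 0.0589 to 0.22. Quantile normalization gave 42 calls (0.211%), 19 higher (0.0953%) and 23 lower (0.115%), of which 6 were shared with the first set (54.5% of the 11 and 14.3% of the 42). Of the 42, 35 lay under the 30th percentile of level. With each array set to its own median there were 0 limma calls, and 1984 genes (9.95%) had an unadjusted p under 0.05, 1294 higher (6.49%) and 690 lower (3.46%).

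The clearest of the lower genes lay on chromosome 7 close to Fosb. Ercc2 encodes a helicase of the TFIIH complex, which opens DNA in transcription and in nucleotide excision repair. Its level was 9.24, 9.33 and 9.28 in wild type and 8.50 and 8.45 in fosB d/d. All fosB d/d arrays lay below all wild type arrays, and the gap between the groups was several times their spread. Ercc2 fell by 0.67 (SE 0.07, adjusted p = 0.0156), and its level was 1.60-fold higher in wild type. Leaving out 1 array moved the difference only between -0.69 and -0.66, while its adjusted p over the alternatives ran from 0.00354 to 0.22.

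Pglyrp1 encodes a secreted peptidoglycan recognition protein of innate immunity. It was at 9.28, 9.30 and 9.0 in the wild type arrays and at 7.97 and 8.14 in the fosB d/d arrays. The groups did not overlap. Pglyrp1 fell by 1.01 (SE 0.13, adjusted p = 0.0406), a level 2.01-fold higher in wild type. Without 1 array in turn the difference was -1.11 to -0.92, and over the alternatives the adjusted p ran from 0.00013 to 0.239.

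The 250 bases before the annotated start of each of these 2 genes are shown because AP-1 sites are where FosB proteins bind. They are from RefSeq on GRCm38.p6, 5′ to 3′ on the gene's own strand, with Ercc2 at chr7:19381767-19382016 and Pglyrp1 at chr7:18884440-18884689, both on the plus strand.
Ercc2: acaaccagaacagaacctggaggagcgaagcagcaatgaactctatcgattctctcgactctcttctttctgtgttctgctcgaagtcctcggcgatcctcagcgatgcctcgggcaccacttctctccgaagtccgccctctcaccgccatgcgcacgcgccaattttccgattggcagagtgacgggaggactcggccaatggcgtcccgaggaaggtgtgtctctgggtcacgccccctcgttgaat
Pglyrp1: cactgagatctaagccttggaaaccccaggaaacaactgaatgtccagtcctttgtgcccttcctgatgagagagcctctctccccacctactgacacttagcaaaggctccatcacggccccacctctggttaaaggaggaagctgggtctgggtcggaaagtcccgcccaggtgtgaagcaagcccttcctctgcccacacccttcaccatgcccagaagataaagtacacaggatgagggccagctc
Neither window holds the letters TGANTCA, the AP-1 motif searched on both strands, so no base is in capitals. Over all 32851 promoter windows of that length, 6.75% hold it.

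Both genes were below wild type in every other group of Fosb mutants (the plot of Fosb and 3 genes near it, by array). Ercc2 was at 8.57 and 8.61 in aged fosB-null mice without epilepsy and at 8.74 to 8.78 in those with epilepsy. In the young saline mice it was at 9.37, 9.75 and 9.69 in wild type and at 8.72, 8.96 and 9.04 in fosB d/d. After KA the wild type arrays had 9.12 to 9.53 and the fosB d/d arrays 8.28 to 8.55. No mutant array reached the lowest wild type array of its own age and treatment. Pglyrp1 was at 8.35 and 8.16 in the aged fosB-null mice without epilepsy and at 8.44 to 8.76 in those with epilepsy. Its young saline arrays had 8.99, 9.20 and 9.15 in wild type and 8.21, 8.56 and 8.54 in fosB d/d, and after KA 9.16 to 9.24 and 8.22 to 8.42. The fosB-null and fosB d/d animals of an age share their wild type arrays.

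**Figure D1:**
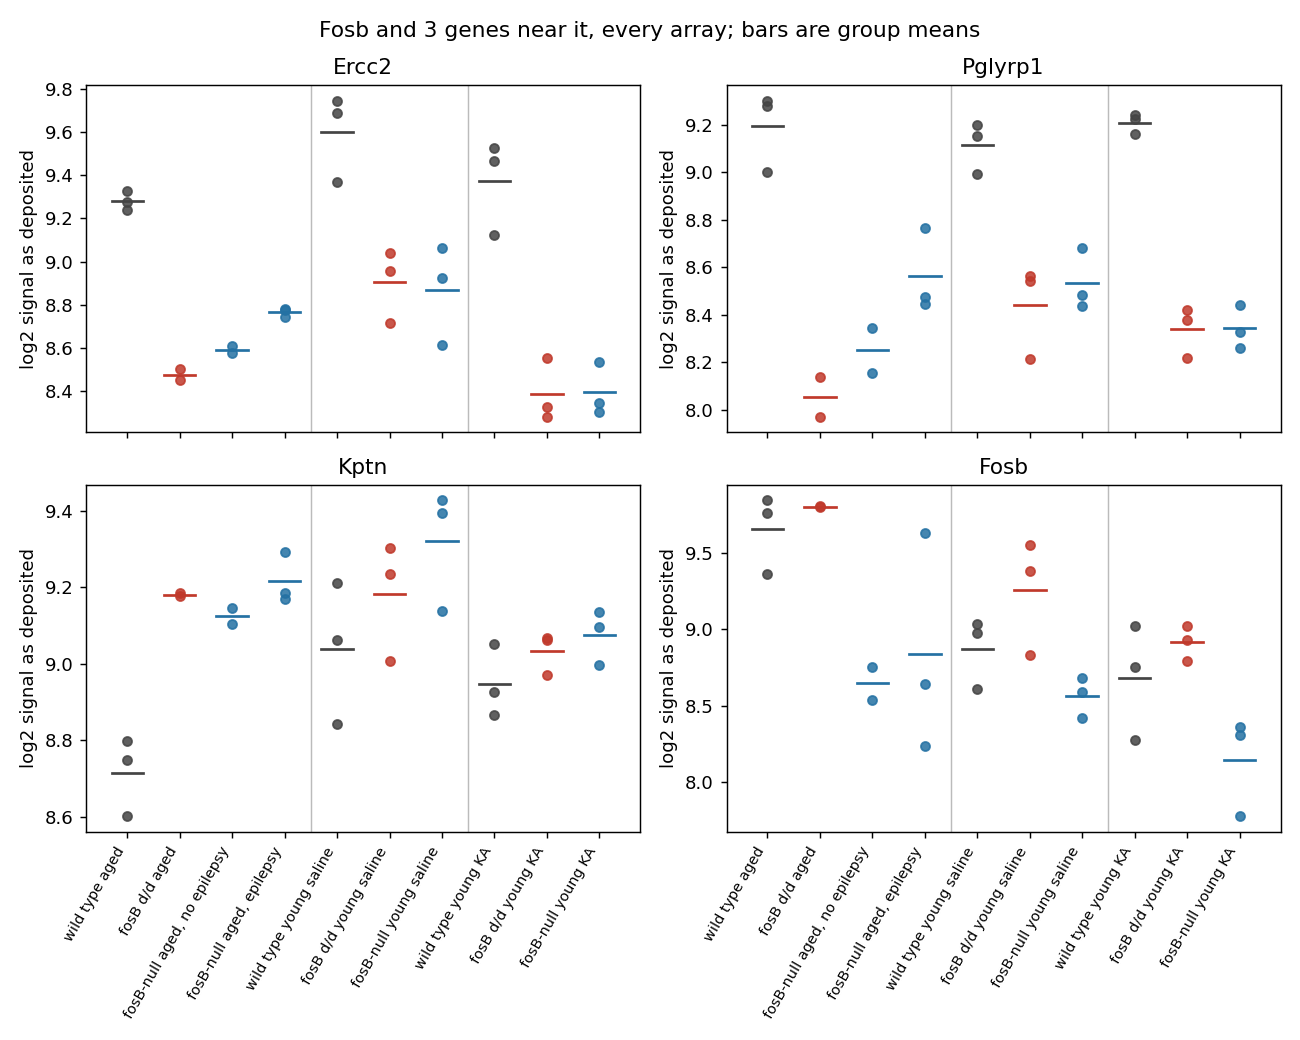
Deposited log2 signal (vertical axes) of Ercc2, Pglyrp1, Kptn and Fosb in each of the 28 arrays, by group, with bars at group means. Every mutant array of Ercc2 and Pglyrp1 lies below the wild type arrays of its own age and treatment, and the aged arrays of Fosb overlap between wild type (9.36 to 9.85) and fosB d/d (9.80 and 9.81).

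In the young saline mice, whose arrays the aged comparison does not use, 0 genes were called by limma on the deposited values (162 at an unadjusted p under 0.05, 0.813%). Quantile normalization gave 2 calls there (0.01%), and both were lower. They were Ercc2 and Pglyrp1, with differences of -0.65 (SE 0.15) and -0.63 (SE 0.11) on the deposited values, each with an adjusted p of 0.0201 after quantile normalization against 1 and 0.217 on the deposited values. Of the 11 genes called in the aged mice, 5 differed in the same direction in the young, all 5 lower. Ercc2 and Pglyrp1 were the ones whose young arrays did not overlap once array medians were removed. Over all genes, 31.5% were lower at both ages, and in the young 2.72% lay wholly below and 4.2% wholly above wild type. On the deposited values the young arrays of Kbtbd6 did not overlap either, at 7.98, 8.0 and 8.03 in wild type and 7.90, 7.96 and 7.88 in fosB d/d. The test of the difference between aged and young effects called 0 genes (498 at an unadjusted p under 0.05, 2.5%). For Ercc2 that difference was -0.02 (SE 0.19, adjusted p = 0.999) and for Pglyrp1 it was -0.38 (SE 0.17, adjusted p = 0.999). As the aged and young arrays differ in their sex-linked transcripts as well as in age, the 2 cannot be told apart in that test. The young groups also differed in choroid plexus markers, whose median difference, fosB d/d minus wild type, was 1.17. Ttr, the transthyretin of that tissue, was at 13.09, 12.22 and 14.04 in young wild type and 14.02, 14.07 and 14.00 in young fosB d/d. Ependymal and meningeal list medians were 0.23 and 0.14, and the part of these tissues in the young values was not tested.

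The other genes called in the aged mice lay on other chromosomes. Lcn4, a lipocalin of chromosome 2 and the only called gene with a higher level, was at 4.91, 4.80 and 4.62 in wild type and at 5.72 and 5.51 in fosB d/d. It rose by 0.97 (SE 0.11, adjusted p = 0.0463) from a level within the lowest 3.54% of genes, where the array gives little signal. Cxcr2, the chemokine receptor of neutrophils on chromosome 1, was also among the dim genes, at 5.36, 5.27 and 5.33 in wild type and 4.38 and 4.18 in fosB d/d. It fell by 0.91 (SE 0.12, adjusted p = 0.0387). The arrays of both genes were separate between the groups.

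Pcbd2, a pterin dehydratase of chromosome 13, stood near the middle of all genes in level. It was at 8.86, 8.85 and 8.79 in wild type and at 8.04 and 8.08 in fosB d/d, and it fell by 0.63 (SE 0.10, adjusted p = 0.0463). The spread within either group was below 0.1, and the groups were far apart. Kbtbd6, a substrate adaptor of a cullin ubiquitin ligase on chromosome 14, was at 7.98, 7.85 and 7.76 in wild type and at 7.11 and 7.23 in fosB d/d. It fell by 0.56 (SE 0.09, adjusted p = 0.0463). Sp6, a zinc finger transcription factor of chromosome 11, was at 7.15, 7.06 and 7.05 against 6.42 and 6.37, and it fell by 0.56 (SE 0.08, adjusted p = 0.0387). For none of the 7 genes did a called direction turn when an array was left out. Each lost its call under most alternatives and kept it in only 3 to 6 of 16 or 17.

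These 5 genes stood apart from the pair near Fosb in the young mice. Cxcr2 was at 5.20 to 5.55 in young wild type and 5.22 to 5.44 in young fosB d/d, a difference of 0.02. Pcbd2 was at 8.54 to 8.77 and 8.58 to 8.91, and its young difference of 0.12 had the opposite sign to the aged one. Young differences were -0.02, -0.04 and 0.05 for Lcn4, Kbtbd6 and Sp6, with overlapping arrays for Lcn4 and Sp6. The tests of aged against young effects gave differences of 0.99 for Lcn4 and -0.93, -0.75, -0.52 and -0.61 for Cxcr2, Pcbd2, Kbtbd6 and Sp6, all with an adjusted p of 0.999. In the aged fosB-null mice without epilepsy the levels were 4.32 and 4.25 for Cxcr2, 7.89 and 8.03 for Pcbd2 and 5.54 in both arrays for Lcn4. Kbtbd6 was at 6.91 and 6.90 and Sp6 at 6.52 and 6.51 there. Those arrays also had the low medians given above. The fosB-null mice with epilepsy, whose array medians were those of wild type, had levels near wild type instead. They were at 4.74, 4.89 and 4.92 for Lcn4, 5.0, 5.39 and 5.15 for Cxcr2, and 8.65, 8.85 and 8.93 for Pcbd2. Kbtbd6 was at 7.77, 7.72 and 7.63 and Sp6 at 7.07, 7.17 and 7.12 in those 3 arrays. In each gene all 3 arrays lay closer to the wild type arrays than the fosB d/d arrays did, and the part of the array medians in the calls was not tested beyond their removal. With array medians removed, the adjusted p values of the 7 named genes were 0.052 to 0.122.

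To describe the comparison beyond the called genes, each direction was filled to 12 with the genes of smallest p above the 30th percentile of level. The 11 added on the higher side were between 0.41 and 0.64 above wild type, with adjusted p values of 0.0894 to 0.144. Kptn, an actin-associated protein of the KICSTOR complex that restrains mTORC1, had the smallest p of them. Its arrays were at 8.75, 8.60 and 8.80 in wild type and at 9.18 in both fosB d/d arrays, without overlap, a difference of 0.60 (SE 0.09, adjusted p = 0.0894, and 0.0337 after quantile normalization). Vps37a, a subunit of the ESCRT-I complex of endosomal sorting, was at 10.43, 10.59 and 10.62 against 10.87 and 10.92, a difference of 0.48 (SE 0.08, adjusted p = 0.118, and 0.0336 after quantile normalization). The aged fosB-null mice had Vps37a at 10.91 in both arrays without epilepsy and at 10.49, 10.55 and 10.60 with it. Their Kptn was at 9.15 and 9.10 without epilepsy and at 9.29, 9.18 and 9.17 with it.

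Others of that set have roles at the synapse or in membrane traffic. Cnih3, an auxiliary subunit of AMPA receptors, was at 10.71, 10.83 and 10.80 in wild type and 11.19 and 10.96 in fosB d/d (difference 0.43, SE 0.09, adjusted p = 0.144). Its levels in aged fosB-null mice were 11.24 and 11.19 without epilepsy and 10.75, 10.87 and 10.73 with it. Rab39b, a neuronal small GTPase, was at 10.24, 10.19 and 10.17 against 10.49 and 10.48 (difference 0.42, SE 0.09, adjusted p = 0.141). Trappc6a, a subunit of the TRAPP vesicle tethering complex and the 11th tested gene from Fosb on chromosome 7, was at 8.96, 8.93 and 8.76 against 9.21 and 9.11 (difference 0.41, SE 0.09, adjusted p = 0.141). In each of the 3, both fosB d/d arrays lay above the wild type arrays. The remaining ones were Tgif2 (a repressor in TGF-beta signalling), Svopl, Dand5 (a secreted Nodal antagonist), Anxa9 (an annexin), Pim2 (a serine/threonine kinase) and Smkr-ps. Their differences were 0.61, 0.64, 0.49, 0.41, 0.50 and 0.45 with adjusted p values of 0.109, 0.118, 0.12, 0.136, 0.138 and 0.141.

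The 6 genes added on the lower side just missed the threshold on the deposited values, where the median gene was lower. With array medians removed, their adjusted p values were 0.111 for Arl1, 0.138 for Zfp36l2, 0.101 for Nostrin, 0.169 for Prr3 and 0.247 for Prob1. On the higher side, Kptn had 0.0783 and Vps37a 0.0637 by that measure. Arl1, a small GTPase of the Golgi, was at 12.36, 12.41 and 12.38 in wild type and 11.83 and 11.87 in fosB d/d (difference -0.39, SE 0.07, adjusted p = 0.0531). Zfp36l2, which binds AU-rich messengers and hastens their decay, was at 10.15, 10.17 and 10.18 against 9.65 and 9.59 (difference -0.42, SE 0.08, adjusted p = 0.0531). Nostrin, which controls the traffic of endothelial nitric oxide synthase, was at 8.39, 8.38 and 8.48 against 7.85 in both arrays (difference -0.44, SE 0.08, adjusted p = 0.0531, and 0.0403 after quantile normalization). The arrays of these 3 did not overlap and lay within 0.1 of each other inside a group. Prr3, Prob1 and Catspere2 (a subunit of the sperm calcium channel) differed by -0.36, -0.32 and -0.31, with adjusted p values of 0.06, 0.0739 and 0.0739. Aged fosB-null mice without epilepsy had Arl1 at 11.84 and 11.78, Zfp36l2 at 9.80 and 9.81 and Nostrin at 8.02 and 8.06. With epilepsy, Arl1 was at 12.34, 12.43 and 12.36, Zfp36l2 at 10.22, 10.33 and 10.17 and Nostrin at 8.03, 8.15 and 8.20.

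**Figure D2:**
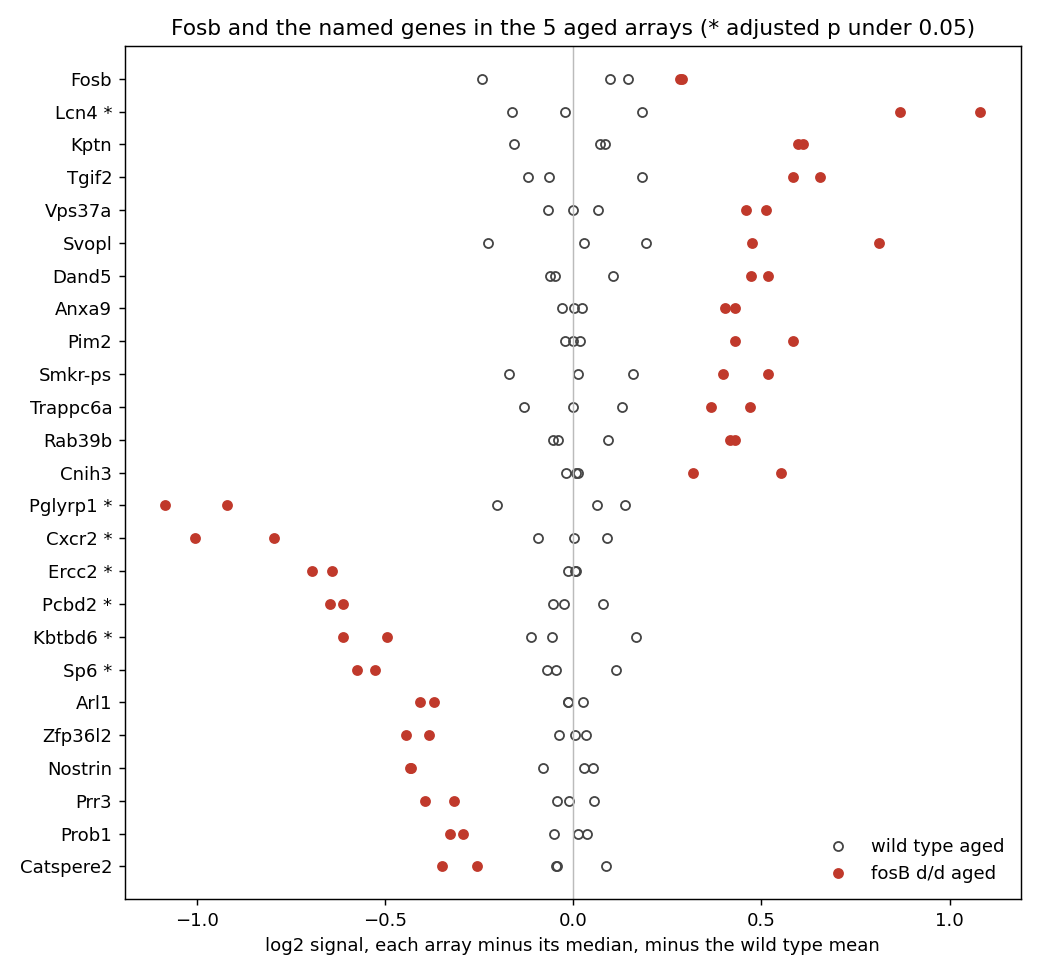
Log2 signal of Fosb and the 24 named genes in the 5 aged arrays, each array minus its own median and minus the wild type mean of the gene, with called genes starred. For the starred genes the fosB d/d points (filled) lie between -1.08 and -0.49 or, for Lcn4, at 0.87 and 1.08, outside the wild type points (open).

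Genes around Fosb were then taken by position, 338 of them within 10 Mb and 76 within 2 Mb. Ercc2, the 4th tested gene from Fosb toward the chromosome's end, and Pglyrp1, the 23rd toward its start, were the called ones in both windows. After quantile normalization 6 of the 338 were called (1.78%, against 0.211% of all genes). They were 2 higher (Kptn and Cd79a, against 0.0953% of all genes) and 4 lower (against 0.115%: Ercc2, Pglyrp1, Psg23 and Nlrp9c). Of the 76 within 2 Mb, 3 were called (3.95%). Kptn was the 75th tested gene from Fosb toward the start. Psg23, a pregnancy-specific glycoprotein, Nlrp9c, an NLR family gene, and Cd79a, a chain of the B cell receptor, were dim, at levels of 6.59 or less in all 5 arrays. The size of the difference, whatever its sign, had a median of 0.17 within 2 Mb, 0.13 within 10 Mb and 0.10 over all genes.

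A separate count took genes whose fosB d/d arrays, each minus its median, lay wholly outside the wild type arrays. In the aged mice this held for 14.8% of all genes above and 13.1% below, and for 23.7% and 23.7% of the genes within 2 Mb of Fosb. It held in the same direction in the aged and the young mice for 1.09% of all genes above and 0.802% below. Within 10 Mb the shares were 2.66% (9 genes) and 2.96% (10 genes). The young arrays were not used for the aged values.

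**Figure D3:**
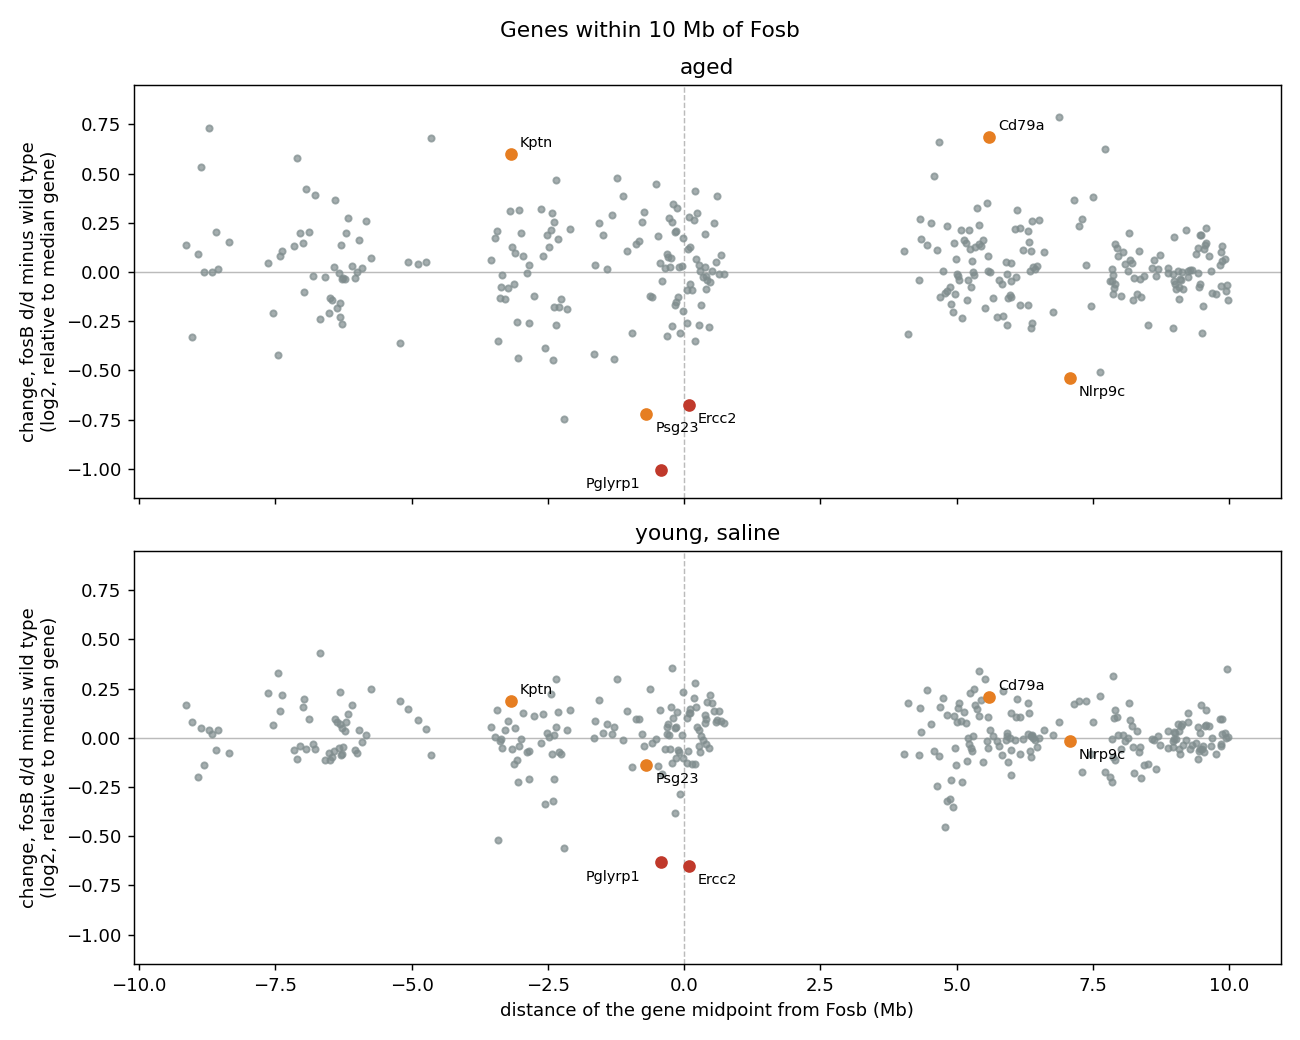
Difference of fosB d/d from wild type after the shift of the median gene (log2, vertical axis), for the 338 genes within 10 Mb of Fosb by distance from it (horizontal axis), in aged (top) and young saline mice (bottom). Red points are called genes and orange points those called only after quantile normalization; Ercc2 (-0.67 and -0.65) and Pglyrp1 (-1.01 and -0.63) are marked at both ages.

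The lower genes of that doubly separate set were Ercc2, Pglyrp1, Psg16, C5ar1, Ap2s1, Opa3, Npas1, Zfp109, Calm3 and Qpctl, and the higher ones were Pnmal2, Kptn, Trappc6a, Six5, Fbxo46, Rinl, Zfp108, Lypd3 and Actn4. Psg16 was at 7.25, 7.47 and 7.71 in aged wild type and 6.55 and 6.65 in fosB d/d (difference -0.75, SE 0.13, adjusted p = 0.0549), and it differed by -0.56 in the young. Ap2s1, the sigma subunit of the AP-2 adaptor of clathrin-mediated endocytosis, was at 11.43, 11.05 and 11.00 against 10.63 and 10.65 (difference -0.38, SE 0.14, adjusted p = 0.132), and in the young at 11.52, 11.60 and 11.52 against 11.08, 11.13 and 11.29 (difference -0.34, SE 0.10). Opa3, a mitochondrial protein and the 4th tested gene from Fosb toward the chromosome's start, was at 9.69, 10.01 and 10.02 against 9.44 and 9.48 (difference -0.31, SE 0.11, adjusted p = 0.12). None of the 3 reached the threshold at either age. Calm3, 1 of the calmodulin genes, differed by -0.18 in the aged mice and -0.21 in the young. C5ar1, the complement C5a receptor, differed by -0.44 in the aged mice (SE 0.10, adjusted p = 0.0894). Pnmal2, the highest of the set after Kptn, was at 10.34, 10.78 and 10.81 in wild type and 10.88 and 11.07 in fosB d/d (difference 0.47, SE 0.16, adjusted p = 0.243). This sorting of neighbours used all arrays of the 4 groups, and no test was made of the windows.

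Groups of related genes were described with 46 lists holding 921 measured genes. No listed gene was called by limma on the deposited values. With each array set to its median, 30 listed genes were higher and 31 lower at an unadjusted p under 0.05 (6.49% and 3.46% over all genes), and after quantile normalization 1 list, that of T and B cell markers, had a called member, Cd79a. Of the 921 genes, 110 had both fosB d/d arrays above all wild type arrays and 138 had both below, where the shares over all genes were 14.8% and 13.1%. List medians ran from -0.19 to 0.15, and 39 of the 46 lay within 0.1 of the median gene.

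Among the partners and targets of FosB, the Fos and Jun family showed no called member. Of its 12 genes 3 lay above all wild type arrays (25.0%) and 0 below, with a median of 0.11. In this and the next 3 lists, the shares over all genes were 14.8% above and 13.1% below. Fos was at 8.16, 8.42 and 8.66 in wild type and 8.74 and 8.23 in fosB d/d, an overlap, and Batf2, an AP-1 family member of immune cells, was at 7.88, 7.82 and 7.98 against 8.19 and 8.03 (difference 0.35, SE 0.10, adjusted p = 0.253). Activity-regulated genes were close to the median gene, at 0.04 for the 36 immediate early genes and 0.01 for 27 late activity genes. The first had 5 above (13.9%) and 1 below (2.78%), the second 5 above (18.5%) and 3 below (11.1%). Arc, the immediate early gene of dendritic messenger transport, overlapped between the groups at 10.70, 11.02 and 11.13 against 10.90 and 10.66. Bdnf, a neurotrophin induced by activity, was at 8.12, 8.37 and 8.20 against 8.38 and 8.32 (difference 0.25, SE 0.32, adjusted p = 0.844). Genes reported elsewhere as targets of FosB proteins had 5 above and 3 below among 23, with a median of 0.05. In that list Cdk5, a neuronal kinase, differed by -0.10 (SE 0.08, adjusted p = 0.166), and Psd3, a guanine exchange factor, was at 11.11, 11.41 and 11.43 against 10.80 and 10.94 (difference -0.31, SE 0.11, adjusted p = 0.118).

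The list with the highest share below wild type was the circadian clock. In that feedback loop, Clock and Arntl (Bmal1) drive genes with E-boxes, and the Per and Cry proteins, with Nr1d1 and Nr1d2 in a second loop, feed back to repress it. Of 17 measured genes, 8 had both fosB d/d arrays below all wild type arrays (47.1%) and 1 had both above, with a median of -0.15 and no called member. In the young mice the median was -0.16, with 7 below and 0 above (2.72% and 4.2% over all genes), and 2 genes were below at both ages. The difference was negative for 14 genes at each age and for 13 at both (76.5%), against 31.5% of all genes at both. After KA, with array medians removed, most differences had the opposite sign, and the change of sign itself was not tested. There 7 of the 17 had all fosB d/d arrays above all wild type arrays and 0 below (9.17% and 6.48% over all genes). There 12 differences were positive, and the list median was 0.17. The 7 wholly higher genes were Hlf (0.51), Tef (0.30), Dbp (0.26), Per3 (0.26), Nr1d2 (0.23), Cry2 (0.17) and Clock (0.17). Array medians after KA were 8.47 to 8.56 in fosB d/d and 8.57 to 8.85 in wild type. On the deposited values the arrays of all 7 genes overlapped. The deposited means of Cry2 (10.50 against 10.55) and Clock (10.98 against 11.03) were lower in fosB d/d. The aged fosB-null mice were set against the same aged wild type arrays, and all fosB-null values of this list are with array medians removed. Without epilepsy, Bhlhe41 (-0.35), Nr1d2 (-0.29), Nfil3 (-0.28), Cry1 (-0.24), Tef (-0.20), Per1 (-0.20) and Per2 (-0.18) were wholly lower. Other genes overlapped, Dbp (-0.06) and Ciart (0.075) among them. With epilepsy, Cry1 was wholly lower (-0.13), Ciart wholly higher (0.36), and Dbp (0.09), Nr1d2 (0.02) and Bhlhe41 (-0.13) overlapped. Young fosB-null mice given saline had Ciart (-0.66), Bhlhe41 (-0.42), Nr1d1 (-0.23), Nr1d2 (-0.21) and Hlf (-0.09) wholly lower. After KA, fosB-null mice had Hlf (0.64), Dbp (0.22), Nr1d2 (0.18), Cry2 (0.17), Clock (0.11) and Nr1d1 (0.10) wholly higher and Bhlhe41 (-0.45) wholly lower. The lists were drawn up with earlier results of these arrays in view.

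The repressor Cry1 was at 8.52, 8.55 and 8.53 in aged wild type and 8.03 and 8.13 in fosB d/d (difference -0.32, SE 0.08, adjusted p = 0.0785). Its values were tight in both groups and far apart, while the young arrays gave a difference of -0.08 (SE 0.13). Bhlhe41 (Dec2), a repressor at E-boxes, was at 9.92, 10.03 and 10.23 against 9.54 and 9.67 (difference -0.32, SE 0.10, adjusted p = 0.114) and differed by -0.38 (SE 0.18) in the young. Nr1d2, a nuclear receptor that represses Arntl, was at 10.77, 10.81 and 10.72 against 10.33 and 10.36 (difference -0.29, SE 0.08, adjusted p = 0.102) and differed by -0.35 (SE 0.12) in the young. Each of these 3 lay wholly below wild type in the aged mice.

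Output genes of the clock differed among themselves, and none was called. Dbp, a PAR-bZIP activator and clock output, was at 10.79, 10.83 and 10.97 in wild type and 10.51 and 10.29 in fosB d/d (difference -0.33, SE 0.11, adjusted p = 0.118). In the young it was at 10.18, 11.27 and 11.16 against 10.24, 10.25 and 10.35, where 1 wild type array lay with the fosB d/d arrays. That array was the one with Xist at 9.55. Tef, a relative of Dbp, differed by -0.23 (SE 0.10, adjusted p = 0.134) in the aged mice. Hlf, a further relative, differed by -0.07 (SE 0.13) and Usp2, a rhythmic deubiquitinase, by 0.12 (SE 0.16). Per1 and Per2 differed by -0.23 and -0.17 with adjusted p values of 0.237 and 0.155, and Nr1d1 by -0.12, with arrays that overlapped once their medians were removed. Ciart, a repressor of the Clock and Arntl pair, differed most in the young mice, at 9.75, 10.96 and 10.72 against 9.52, 9.43 and 9.91 (difference -0.81, SE 0.21, adjusted p = 1), while the aged difference was -0.19 (SE 0.13). Arntl, at the other arm of the loop, differed by 0.11 (SE 0.14) in the aged and 0.12 (SE 0.12) in the young. The hour at which hippocampi were taken is not given in the sources used here, and its part in these values was not tested.

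**Figure D4:**
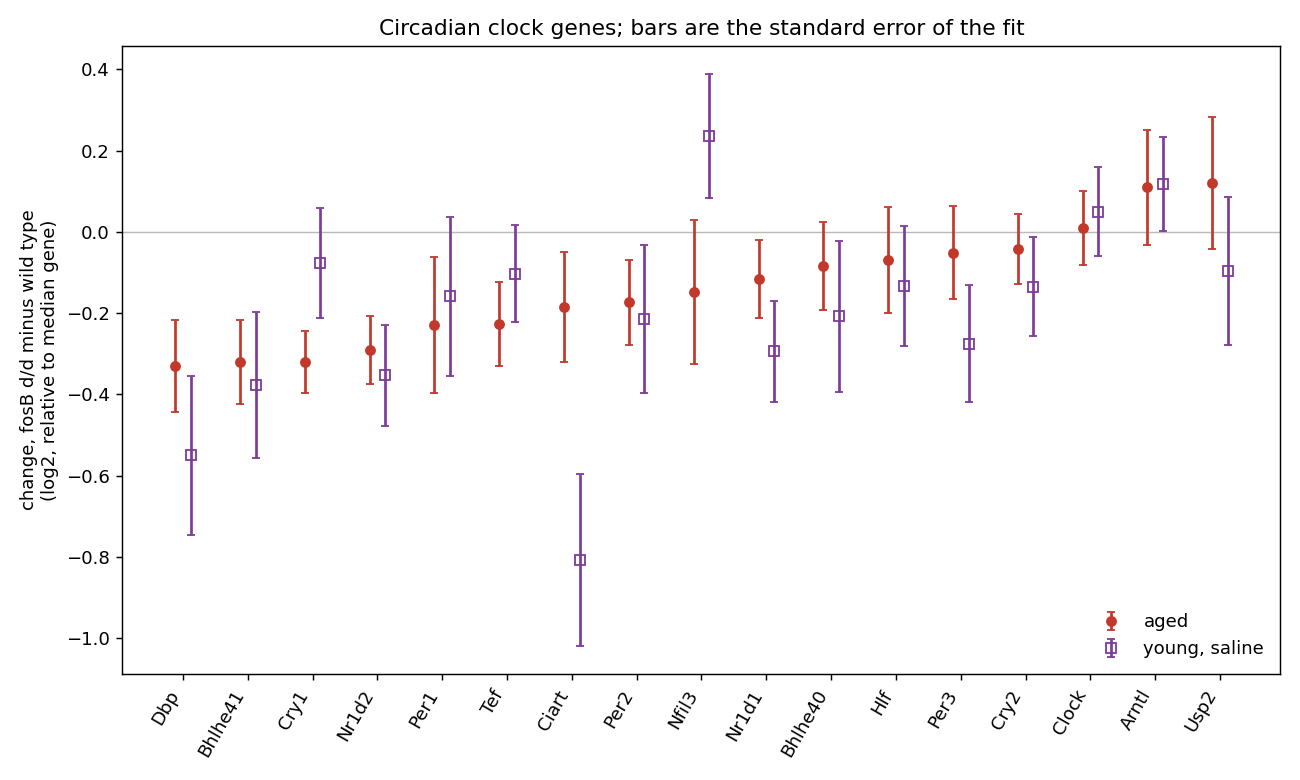
Difference of fosB d/d from wild type after the shift of the median gene (log2, vertical axis) for the 17 measured clock genes in aged (filled) and young saline mice (open), with bars for the SE of the fit. Most points lie below 0 at both ages, from -0.33 (Dbp) in the aged and -0.81 (Ciart) in the young, and none was called.

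Promoter windows of 3 clock genes are shown because they hold the E-box, CACGTG, through which Clock and Arntl act, here in capitals. Each is the 250 bases before the RefSeq start on GRCm38.p6, 5′ to 3′ on the gene's minus strand: Cry1 at chr10:85185055-85185304, Bhlhe41 at chr6:145865421-145865670 and Ciart at chr3:95882229-95882478.
Cry1: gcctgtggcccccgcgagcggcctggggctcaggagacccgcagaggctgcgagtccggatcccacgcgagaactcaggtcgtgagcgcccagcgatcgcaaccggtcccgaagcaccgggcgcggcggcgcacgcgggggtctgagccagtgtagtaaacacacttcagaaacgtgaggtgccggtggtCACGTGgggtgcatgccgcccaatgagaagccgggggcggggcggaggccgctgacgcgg
Bhlhe41: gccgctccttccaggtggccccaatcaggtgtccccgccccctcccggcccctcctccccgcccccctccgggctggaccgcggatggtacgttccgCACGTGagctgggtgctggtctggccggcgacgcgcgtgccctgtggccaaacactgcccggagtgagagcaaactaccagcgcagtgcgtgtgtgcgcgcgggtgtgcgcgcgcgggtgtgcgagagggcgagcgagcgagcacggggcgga
Ciart: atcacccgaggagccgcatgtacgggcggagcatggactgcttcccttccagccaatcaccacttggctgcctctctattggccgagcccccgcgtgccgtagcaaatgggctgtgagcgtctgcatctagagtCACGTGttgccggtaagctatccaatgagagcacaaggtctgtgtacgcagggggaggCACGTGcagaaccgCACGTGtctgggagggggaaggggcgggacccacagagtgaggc
Cry1 and Bhlhe41 have 1 match each and Ciart has 3. The promoter table has 20 windows of clock genes, of which 6 hold an E-box (30%), against 6.02% of all 32851 windows, and 0 of the 20 hold the AP-1 motif. The 6 belong to 5 genes, the others being Per1 and Tef. These shares come from the choice of list and from sequence alone, so they say nothing of fosB d/d. With array medians removed, Per1 and Tef were wholly lower in aged fosB d/d mice, while Ciart overlapped. Nr1d2 and Dbp, which were as low in fosB d/d as Cry1, have no E-box in their windows.

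Genes of neuronal signalling were mostly near the median gene (the bar chart of lists). In this and the following counts, 13.1% of all genes lay below and 14.8% above all wild type arrays. The members named first in each list are those of smallest p on the deposited values, where the median gene is lower in fosB d/d, so that lower genes come first. Of 22 glutamate receptor genes, 7 lay below (31.8%) and 1 above (4.55%), with a median of -0.06. Grik5, a kainate receptor subunit, was at 11.90, 11.78 and 11.82 in wild type and 11.48 and 11.46 in fosB d/d (difference -0.23, SE 0.08, adjusted p = 0.114), and Grik1, another, differed by -0.23 (SE 0.09, adjusted p = 0.119) in the aged mice and -0.21 (SE 0.17) in the young. The member above was Grik4, a further kainate receptor subunit, at 11.03, 10.86 and 10.86 against 10.99 and 11.06, separate only once array medians were removed (difference 0.24, SE 0.10, adjusted p = 0.539). The 54 potassium and HCN channel genes split into 12 above (22.2%) and 11 below (20.4%), with a median of -0.02. Kcnk2, a leak channel, was at 9.37, 9.51 and 9.49 against 9.0 and 9.07 (difference -0.29, SE 0.08, adjusted p = 0.0913), and Kcnj3, a G protein-gated channel, at 11.86, 11.86 and 11.78 against 11.47 and 11.48 (difference -0.23, SE 0.07, adjusted p = 0.102). Kcna4, a voltage-gated channel, differed by -0.26 (SE 0.08, adjusted p = 0.104) and Kcnj10, the inward rectifier of astrocytes, by -0.24 (SE 0.09, adjusted p = 0.118). On the higher side, Kcnip2, a subunit of A-type channels, was at 11.36, 11.18 and 11.15 against 11.48 and 11.46 (difference 0.37, SE 0.12, adjusted p = 0.275), and Hcn4, a pacemaker channel, at 7.96, 7.84 and 7.88 against 8.09 and 8.05 (difference 0.31, SE 0.09, adjusted p = 0.272). Both lay apart from wild type. Of 24 sodium and calcium channel genes 6 lay above (25.0%) and 3 below (12.5%), with a median of -0.03. Scn3b and Cacnb2, beta subunits of sodium and calcium channels, each differed by 0.23 (SE 0.10 each, adjusted p = 0.576 and 0.586), and Scn4b, another sodium channel beta subunit, differed by -0.34 (SE 0.13, adjusted p = 0.132). Unc13c, a vesicle priming protein, was at 9.29, 9.21 and 9.25 against 8.86 and 8.79 (difference -0.29, SE 0.10, adjusted p = 0.117). No gene of these lists was called.

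**Figure D5:**
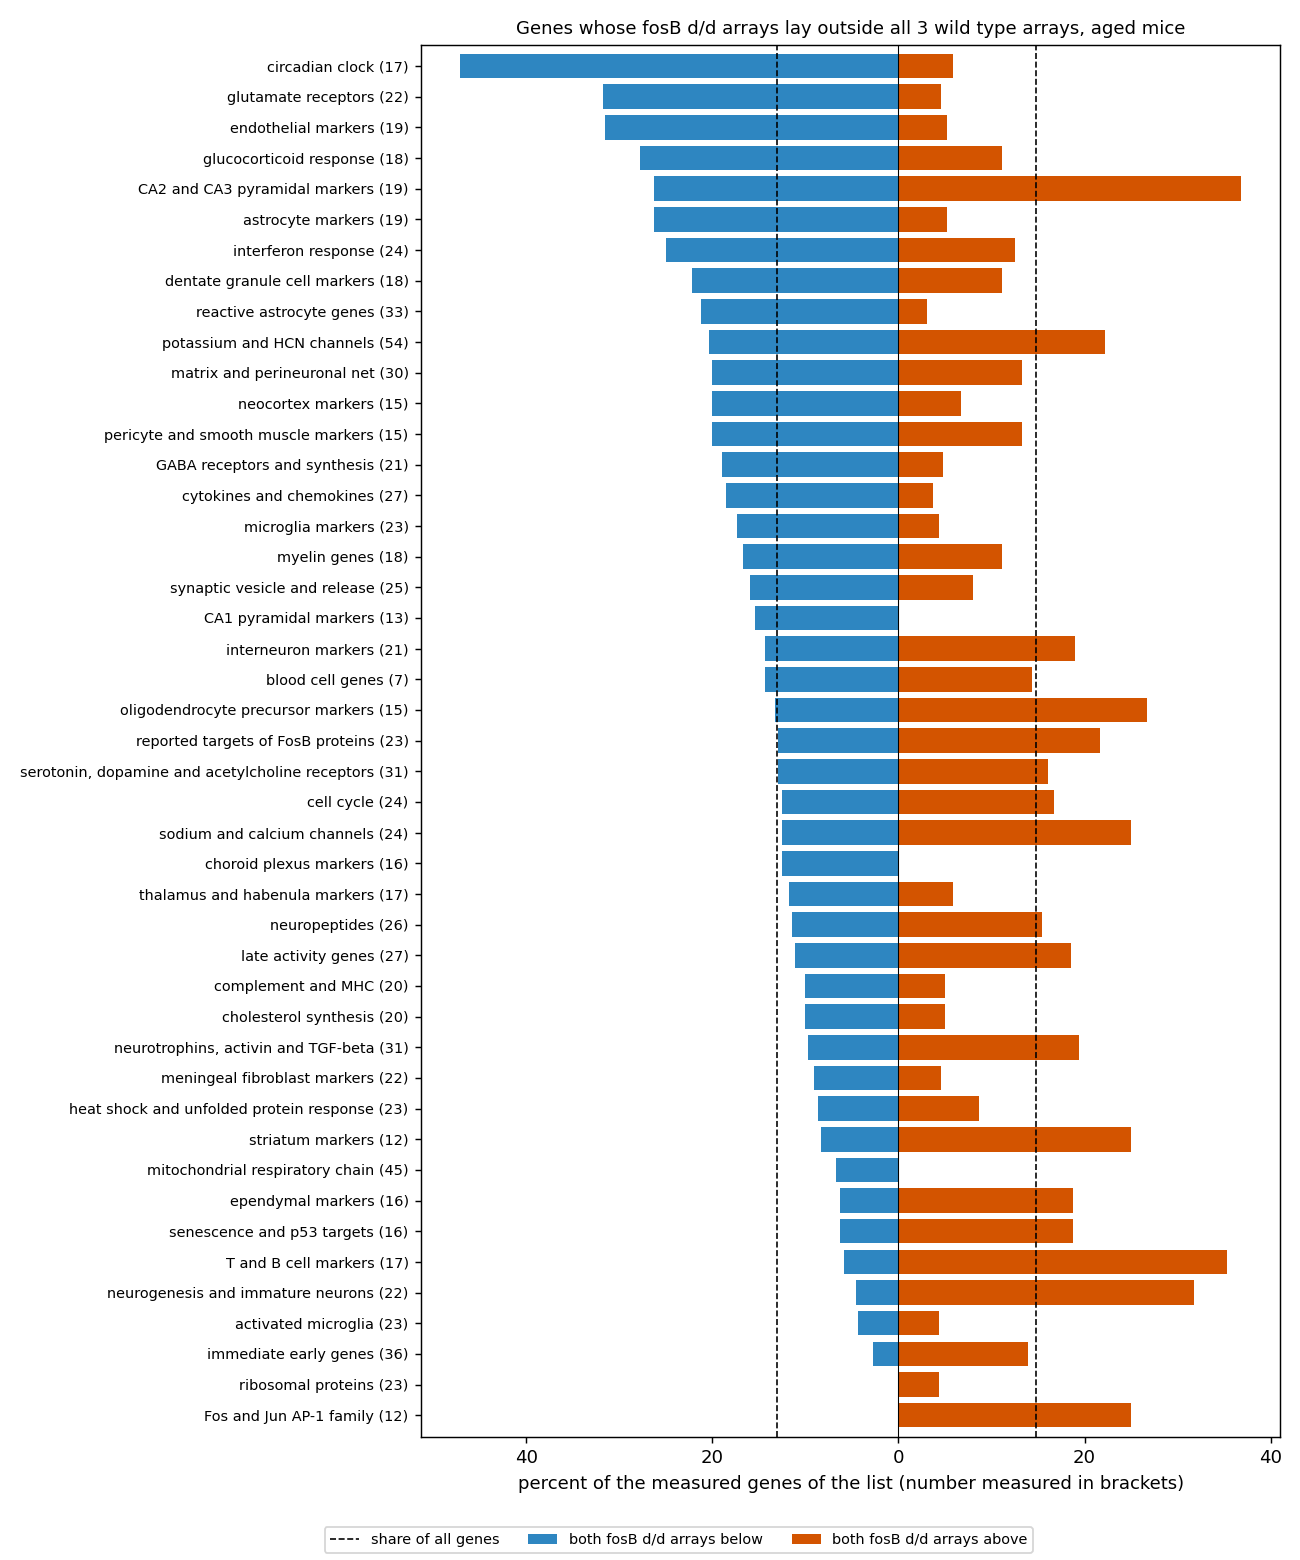
Percent of the measured genes of each list but the sex-linked one (number in brackets) whose fosB d/d arrays, each minus its median, lay below (left) or above (right) all 3 wild type arrays in aged mice, with dashed lines at the shares over all genes. The circadian clock has 47.1% below against 13.1% of all genes, and lists on either side of the dashed lines had no member called on the deposited values.

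Among cell types of the hippocampus, pyramidal cell markers of CA2 and CA3 had 7 above (36.8%) and 5 below (26.3%) of 19, with a median of 0.06, and CA1 markers 0 above and 2 below (15.4%) of 13. Cacng5, an AMPA receptor regulator enriched in CA2, was at 8.87, 9.49 and 9.33 in wild type and 8.75 and 8.70 in fosB d/d (difference -0.37, SE 0.18, adjusted p = 0.168), with 1 wild type array close to the fosB d/d arrays. Its difference was the lowest of the CA2 and CA3 list, whose other members ran up to 0.43. Neurogenesis and immature neuron genes had 7 above (31.8%) and 1 below (4.55%) of 22 with a median of 0.04. Sox11, a transcription factor of newborn neurons, was at 9.13, 9.08 and 9.14 against 9.14 and 9.26, and lay apart only once array medians were removed (difference 0.22, SE 0.11, adjusted p = 0.664). Oligodendrocyte precursor markers had 4 above (26.7%) and 2 below (13.3%) of 15, with a median of -0.05. Vcan, a proteoglycan of these cells, was at 9.18, 9.38 and 9.16 against 8.77 and 8.84 (difference -0.31, SE 0.10, adjusted p = 0.118). That was the lowest difference of the list, whose other members ran up to 0.20. Fewer cells of a type and less RNA per cell cannot be told apart in these bulk samples.

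Glial, vascular and immune genes are given next, and none was called. Microglia markers had 4 below (17.4%, near the share of all genes) and 1 above (4.35%) of 23, with a median of -0.07. Itgam (CD11b) was at 8.45, 8.76 and 8.50 in wild type and 8.10 and 8.17 in fosB d/d (difference -0.30, SE 0.11, adjusted p = 0.118) and differed by -0.24 (SE 0.13) in the young. C1qc, a chain of complement C1q, was at 10.55, 10.75 and 10.41 against 10.11 and 10.06 (difference -0.35, SE 0.15, adjusted p = 0.138). Reactive astrocyte genes had 7 below (21.2%) and 1 above (3.03%) of 33, with a median of -0.07, and Gfap, the astrocyte filament, overlapped at 11.16, 11.81 and 11.31 against 11.35 in both arrays. Serping1, the C1 inhibitor, was at 9.12, 9.20 and 8.98 against 8.33 and 8.67 (difference -0.47, SE 0.23, adjusted p = 0.175).

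Interferon response genes had a median of -0.16, with 6 below (25.0%) and 3 above (12.5%) of 24. At both ages 3 lay below, where 0.802% of all genes did. Ifitm3, an antiviral membrane protein, was at 10.64, 10.77 and 10.11 against 9.79 and 9.73 (difference -0.61, SE 0.23, adjusted p = 0.138), and Irgm1, an interferon-induced GTPase, at 8.43, 8.85 and 8.54 against 8.14 and 8.13 (difference -0.34, SE 0.13, adjusted p = 0.13). The chemokine Cxcl10 was at 8.16, 8.81 and 8.07 against 7.77 and 7.36 (difference -0.65, SE 0.29, adjusted p = 0.173). In these 3 genes the wild type arrays were spread widely, and the fosB d/d arrays lay below them. Of the 3 genes above once array medians were removed, Mx1, an antiviral GTPase, was at 5.30, 5.52 and 5.46 against 5.67 and 5.35 (difference 0.22, SE 0.14, adjusted p = 0.739), and Bst2 (tetherin) differed by 0.23 (SE 0.13, adjusted p = 0.673). Endothelial markers had 6 below (31.6%) and 1 above (5.26%) of 19, with a median of -0.06. Slco1a4, an organic anion carrier of the blood-brain barrier, was at 9.83, 9.89 and 9.79 against 9.34 and 9.30 (difference -0.39, SE 0.09, adjusted p = 0.0894), and Tek, the angiopoietin receptor, at 8.58, 8.45 and 8.37 against 8.08 and 8.07 (difference -0.25, SE 0.10, adjusted p = 0.12). Glucocorticoid response genes had 5 below (27.8%) and 2 above (11.1%) of 18, with a median of -0.12, among them Pdk4, a kinase that inhibits pyruvate dehydrogenase, with a difference of -0.36 (SE 0.11, adjusted p = 0.118) and Ddit4, an inhibitor of mTORC1, with -0.22 (SE 0.08, adjusted p = 0.118).

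T and B cell markers had the highest list median, with 6 above (35.3%) and 1 below (5.88%) of 17 and a median of 0.15, at levels where 0 of the 17 lay above the median gene. Cd79a was at 6.07, 6.00 and 6.00 in wild type and 6.59 and 6.56 in fosB d/d (difference 0.68, SE 0.08, adjusted p = 0.0532, and 0.05 after quantile normalization). Senescence genes and p53 targets had 3 above (18.8%) and 1 below (6.25%) of 16, with a median of -0.05. The highest of them was Lmnb1, a nuclear lamina protein that declines in senescent cells. It was at 7.71, 7.44 and 7.48 against 7.83 and 7.84 (difference 0.42, SE 0.10, adjusted p = 0.165). Cd79a and Lmnb1 lay apart between the groups.

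Of tissues next to the hippocampus, choroid plexus markers had the lowest list median, -0.19, with 2 below (12.5%) and 0 above of 16, while the young median given above was of opposite sign. Their mean level relative to the array median was -0.50, -0.42 and -0.83 in wild type, -0.75 and -0.80 in fosB d/d, and 1.05 and 1.65 in the fosB-null mice without epilepsy. Ttr was at 12.11, 12.55 and 10.90 in wild type and 10.49 and 11.06 in fosB d/d. These ranges overlapped, and the part of choroid plexus RNA in other differences was not tested. Zic1, a thalamic and meningeal marker, was at 8.71, 10.28 and 10.26 against 9.04 and 8.48.

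Against the aged fosB-null mice without epilepsy, which lack both FosB and delta-FosB, 0 genes were called by limma (552 at an unadjusted p under 0.05, 2.77%, and 0 called after quantile normalization). The median gene differed by 0.01. Of the genes with the smallest p, Tns1, a focal adhesion protein, was at 9.19 and 9.12 in fosB d/d and 9.85 and 10.03 in fosB-null (difference -0.80, SE 0.12, adjusted p = 0.841). Vcam1, an endothelial adhesion molecule, was at 8.92 and 8.90 against 9.66 and 9.62 (difference -0.74, SE 0.12, adjusted p = 0.841), and Tspan18, a tetraspanin, at 9.63 and 9.76 against 10.37 and 10.30. On the higher side, Ceacam2 was at 8.16 and 7.87 against 7.45 and 7.40 and Tuba8, an alpha tubulin, at 10.16 and 10.08 against 9.51 and 9.68 (adjusted p = 0.974 for both), as was Lhfpl1 at 6.72 and 6.91 against 6.20 and 6.23. Beside these values stand the choroid plexus genes, with Ttr at 13.87 and 13.93 and Kcnj13, a potassium channel of that tissue, at 11.82 and 12.52 in fosB-null against 7.61 and 8.22 in fosB d/d, and their part in the comparison was not tested. Slco1a4 was at 9.75 and 9.78 and Ifitm3 at 10.85 and 10.33 in these fosB-null arrays, both above the fosB d/d arrays. Nr1d2, by contrast, was at 10.35 and 10.37 and Cry1 at 8.23 and 8.11, which overlap or adjoin the fosB d/d values. Ercc2 differed by -0.13 and Pglyrp1 by -0.21 between the 2 mutants, neither called (adjusted p = 1).

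The further genes of smallest p in the young comparison and in the test of aged against young effects were not called. In the young saline mice these were Kcne2 (1.13), Pla2g2d (0.36) and Ecrg4 (1.40) on the higher side and, beside Pglyrp1, Serpinb1a (-0.50) and Bpifb9b (-1.21) on the lower, with adjusted p values of 1 for the higher and 0.217 for the lower genes. Kcne2 and Ecrg4 are abundant in choroid plexus. In the aged mice Serpinb1a, a protease inhibitor, was at 8.35, 8.65 and 8.27 in wild type and 8.06 and 7.96 in fosB d/d, which do not overlap. For the difference between ages, Cldn34b3 and Cga, the shared alpha chain of the glycoprotein hormones, had the smallest p on the higher side beside Lcn4, with differences of 1.02 and 1.25 and adjusted p values of 0.999. Cga was at 6.42, 6.43 and 6.23 in aged wild type and 7.42 and 6.98 in aged fosB d/d, without overlap.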

How the data were processed

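RNA of mouse hippocampus was hybridised to Affymetrix Mouse Gene 1.0 ST arrays, 100 ng a sample per the labels' protocols. The values are the deposited log2 signals of each probe set, which the authors made with Affymetrix Expression Console, per the submitters' processing notes, and its version and normalization algorithm are not given in the sources used here. Of 35557 probe sets, 21789 name 1 gene symbol, 1621 several and 12147 none. The brightest probe set of each gene gave 19938 genes, of which names were checked against RefSeq (GRCm38.p6) by Entrez identifier.

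Differences were tested with limma 3.58.1 in R 4.3.3 (lmFit and eBayes) on the 10 aged arrays, the 18 young arrays, or all 28 for the difference between ages, with Benjamini-Hochberg adjustment over all genes. The fits were tested on simulated data. The number of arrays, 2 and 3 a group, limits the precision, and p-values measure the spread between animals labelled as biological replicates. Named genes were Fosb and, per direction, the 12 called genes of largest difference, filled with those of smallest p above the 30th percentile of level, leaving out chemosensory receptors, lymphocyte receptor segments, predicted loci and small RNAs. Each list gave up to 4 members of smallest p, others were named after their values were seen, and the other comparisons gave 3 genes of smallest p per direction. The members and lists were chosen with earlier results of these data known.

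In the young saline groups, same-numbered arrays deviated together (correlations 0.7763, 0.4311 and 0.4073), so the numbers pair them. The fit with that block called 0 genes on the deposited values and 3 after quantile normalization. The young values and the test between ages in the Results are from fits without the block. The source name of the young fosB d/d saline arrays names kainate, while their title and treatment label say saline, which was used. Alternatives were quantile normalization, each array minus its median, the mean of probe sets, a filter on dim genes, other fits and leaving out each array.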

Additional observations from a re-analysis of the deposited data

How the results depend on the processing

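The 11 calls of the aged comparison became 42 with quantile normalization, 7 without the dimmest 30% of genes, 5 with trended and robust moderation, 7 with all 28 arrays in 1 fit and 1147 with array weights. They became 0 with each array minus its median, with only the groups compared, with age as a covariate and with any 1 array left out (0 to 0). Replicate numbers did not pair the aged fosB d/d and wild type arrays (correlations of deviations 0.0971 and 0.0034), and the replicate block gave 0 calls. Settings chosen after seeing the data gave 1 call (quantile normalization with the replicate block) and 0 calls (quantile normalization, only the groups compared). The cause of these shifts was not tested. Against fosB-null, the correlation was -0.4465. With 2 arrays in each group both pairs must give the same value, so it does not settle the pairing. The crossed pairing gave 0 calls. The young count of 0 became 2 with quantile normalization, 2 with each array minus its median, 4 with array weights, 3 with quantile normalization and the replicate block, and 0 to 2 with 1 array left out. The difference between ages, with 0 calls, gave 1, 1, 33, 1 and 3 with quantile normalization, each array minus its median, array weights, quantile normalization with the replicate block, and quantile normalization on only the groups compared. Called genes near Fosb went from 2 to 6, and lists with a called member from 0 to 1, with quantile normalization.

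Of 1790 values of named genes under alternatives, 1637 kept direction and side of the threshold. Of the rest, 84 lost a call, 57 gained one and 12 turned sign, the last in Fos, Arc, Gfap and Nptx2, which were not called. Of the 106 genes behind these values 7 were called at first, and only these could lose a call. Each kept it in 3 to 6 of its 16 or 17 alternatives. Arc was 0.0265 with age as a covariate. Gfap was -0.0288 with the replicate block and -0.0444 with age. Nptx2 was -0.0878, -0.0299 and, with quantile normalization and the block, -0.0431. With 1 array left out, Fos ran from -0.0433 to 0.4523, Arc from -0.1513 to 0.0689, Gfap from -0.0586 to 0.2268 and Nptx2 from -0.0274 to 0.212. Signal over background limits the dim genes.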
